A study of Mus musculus with 10 samples.

Results

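The 8 genes Spi1, Fli1, Erg, Ets1, Etv5, Etv6, Elf1 and Gabpa encode transcription factors of the ETS family, and the accessible chromatin around them was followed while GATA1 was switched on in an erythroid line. Each gene was taken with 100 kb on either side of its annotated span, and the peak summits of 10 ATAC-seq lists that fell in these windows were collected. They made up 50 of 28981 accessible regions and 265 of 146939 summits, with 16 to 37 summits per library. ATAC-seq marks open DNA by the sites at which the Tn5 transposase can insert an adaptor. The cells were G1E-ER4, a subclone of the mouse line G1E, which lacks Gata1. The subclone carries GATA1 joined to the ligand-binding domain of the estrogen receptor. All libraries therefore share the same genotype, and β-estradiol at 1e-07 M was the variable. The 5 groups were untreated cells (0 h) and cells after 2, 6, 12 and 24 h in β-estradiol, with 2 libraries each.

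ETS proteins bind DNA through a shared domain that reads a GGAA core, and blood cells use many of them at once. PU.1, the product of Spi1, drives myeloid and B-cell genes and opposes GATA1 in erythroid precursors. Fli1 and Erg act in stem cells and megakaryocytes, Ets1 is prominent in lymphocytes, and Etv6 is a repressor needed in bone marrow stem cells. Etv5 belongs to the PEA3 branch that responds to growth factor signalling. Elf1 is widespread in blood cells, and Gabpa, the DNA-binding subunit of GABP, occupies promoters of housekeeping and mitochondrial genes.

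A score in a list is −log10 of the q-value that the peak caller gave in that library alone, so it was turned into a percentile of its own list (0 lowest, 100 highest). A region is a set of overlapping windows of 501 bp around the summits of all lists, and it is named here by the distance of its midpoint from the most upstream start of the gene in the GENCODE basic transcript set. For Spi1 (chr2:91096096), Fli1 (chr9:32541595) and Ets1 (chr9:32696022) it falls within the annotated span, whose 5′ end is set by other transcripts. A region within 1 kb of a protein-coding start is called a promoter region, and any other region distal. The lists hold no read totals, so sequencing depth is unknown, and an unlisted region is only one that was not called. In bulk cells, fewer cells with an open region and a less open region in each cell cannot be told apart. Promoters of the erythroid genes Klf1 and Epor were listed in all 10 libraries. Those of Nfe2 and Lmo2 were listed in 7 and that of Tal1 in 2, neither of them at 0 h or 24 h. Promoters of 3 megakaryocyte (Itga2b, Pf4, Gp9) and 3 macrophage and neutrophil markers (Csf1r, Itgam, Mpo) were listed in none, nor were those of the lymphocyte genes Cd3e and Cd79a. Of 3 mast cell markers Kit alone was listed, in 9 libraries. Among all protein-coding genes 55.4% had no listed promoter, so an unlisted marker says little about cell identity. The 6 h replicate 2 list is the longest with 19859 summits, and the 24 h replicate 2 list the shortest with 10698.

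The sequences below are the central 200 bases of the regions on which the results turn, all in the mm10 genome (GRCm38.p6). The first 4 were lost or gained relative to 0 h and held a GATA match. Spi1 −35.1 kb was the distal region listed in every library, and Spi1 +19.1 kb the lost region that lies in coding DNA. Capitals mark matches on either strand to a GATA motif (AGATAA or TGATAA, read as TTATCT or TTATCA on the printed strand) or an ETS motif (AGGAAG or CGGAAG, read as CTTCCT or CTTCCG). A match is a description of the letters and no evidence of binding.
Erg +98.5 kb (chr16:95487990-95488189, plus strand): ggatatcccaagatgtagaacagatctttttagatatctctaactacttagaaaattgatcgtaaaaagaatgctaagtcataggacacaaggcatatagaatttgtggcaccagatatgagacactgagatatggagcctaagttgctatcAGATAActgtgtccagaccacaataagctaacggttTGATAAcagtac
Etv6 +82.1 kb (chr6:134117656-134117855, plus strand): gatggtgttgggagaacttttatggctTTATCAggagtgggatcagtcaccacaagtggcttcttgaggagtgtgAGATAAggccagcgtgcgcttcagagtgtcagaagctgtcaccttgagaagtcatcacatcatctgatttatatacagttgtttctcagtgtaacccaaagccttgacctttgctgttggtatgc
Elf1 +19.6 kb (chr14:79500734-79500933, plus strand): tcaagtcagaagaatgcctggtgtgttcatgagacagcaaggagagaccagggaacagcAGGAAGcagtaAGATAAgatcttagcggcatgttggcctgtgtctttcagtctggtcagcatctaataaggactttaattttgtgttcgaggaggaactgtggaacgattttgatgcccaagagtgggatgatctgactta
Etv6 +47.0 kb (chr6:134082555-134082754, plus strand): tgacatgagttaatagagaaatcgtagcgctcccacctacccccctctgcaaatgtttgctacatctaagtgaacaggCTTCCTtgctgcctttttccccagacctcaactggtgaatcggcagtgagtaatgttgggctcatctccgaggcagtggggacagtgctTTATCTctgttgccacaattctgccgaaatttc
Spi1 −35.1 kb (chr2:91060849-91061048, plus strand): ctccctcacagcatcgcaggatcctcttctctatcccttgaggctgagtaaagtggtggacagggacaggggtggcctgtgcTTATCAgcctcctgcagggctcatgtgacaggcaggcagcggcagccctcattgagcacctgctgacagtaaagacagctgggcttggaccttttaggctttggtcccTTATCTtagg
Spi1 +19.1 kb (chr2:91115124-91115323, plus strand): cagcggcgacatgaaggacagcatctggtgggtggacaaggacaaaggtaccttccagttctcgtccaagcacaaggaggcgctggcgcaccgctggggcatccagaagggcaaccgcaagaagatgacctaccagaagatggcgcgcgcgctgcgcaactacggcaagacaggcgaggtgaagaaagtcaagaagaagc

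In Elf1 +19.6 kb the ETS match starts at base 60 and the GATA match at base 71 of the printed window, without overlap. Spi1 +19.1 kb held neither motif. Its 200 bases are all annotated as coding sequence of Spi1, and they encode part of the ETS domain of PU.1. The other sequences lie in introns, that of Spi1 −35.1 kb in an intron of the neighbouring gene Psmc3. Among the 32 distal regions, 43.8% held a GATA match and 25% an ETS match, beside 37.9% and 33% of all 19029 distal regions. Among the 18 promoter regions in the windows the shares were 5.56% and 33.3%, beside 6.75% and 41.7% of all promoter regions.

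Regions were unevenly spread over the genes. Elf1 had 16 regions, Spi1 13, Erg 9, Etv6 7, Etv5 3 and Gabpa 2. Fli1 and Ets1 had 0 in every library. Among all 21938 protein-coding genes the median was 5 regions and 19.5% had 0. By class, 6 of the 50 regions were promoters of an ETS factor gene, 12 were promoters of neighbouring genes and 32 were distal. Listing in every library was found for 3 of the 6 own promoters and 7 of the 12 neighbouring ones, beside 49.9% of all promoter regions. Of the 32 distal regions 1 was in all 10 libraries (3.12%, beside 6.64% of all distal regions) and 14 were in 1 library (43.8%, beside 39.3%). Of the 16 regions seen in 1 library, 5 came from 6 h replicate 2 and 5 from 12 h replicate 1.

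**Figure D1:**
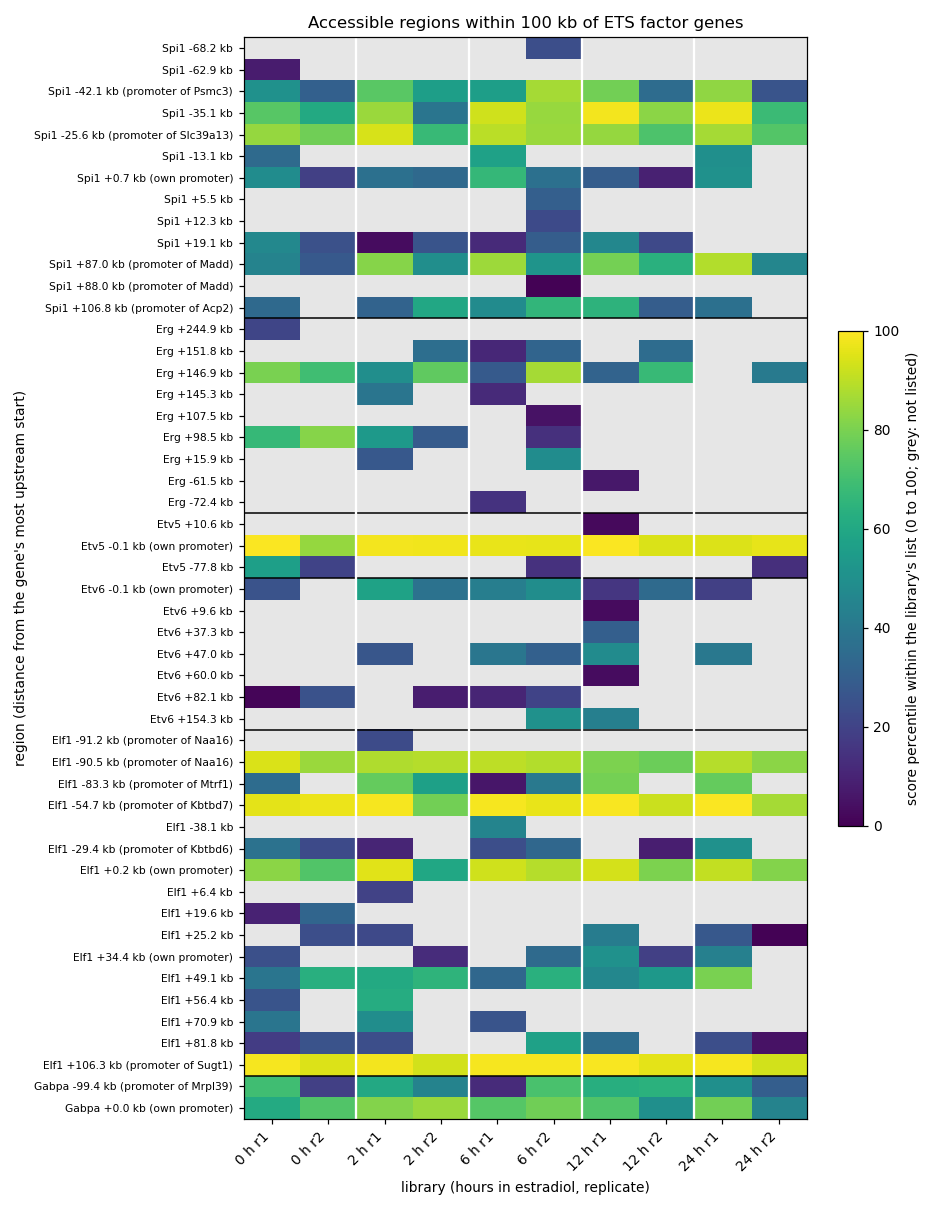
Each row is 1 of the 50 regions, named by its distance in kb from the gene's start, and each column 1 of the 10 libraries. Colour is the score percentile within the library's list (0 to 100) and grey means not listed. The rows of 3 of 6 own promoters, Etv5 −0.1 kb among them, and of 7 of 12 neighbouring promoters are filled across. The other promoter rows and the rows of most distal regions are broken.

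Fli1 (ENSMUSG00000016087.13, chr9:32422204-32542861) and Ets1 (ENSMUSG00000032035.15, chr9:32636221-32757820) are neighbours on chromosome 9, so their windows overlap and count as 1 locus of 535.6 kb. No summit of any library lay in it. The nearest summits were 496.2 kb from the Fli1 span on one side and 1572.5 kb from the Ets1 span on the other, each in a region seen in 1 library. The stretch without a summit measured 2404.4 kb and held 5 protein-coding genes, Arhgap32, Kcnj5, Kcnj1, Fli1 and Ets1. At least as long a stretch between neighbouring summits occurred 97 times in the genome, this one included. Of 1957 genes whose windows were at least as long as that of Fli1 (321 kb), 432 were empty (22.1%), Fli1 and Ets1 included. No change with estradiol could therefore be measured at either gene.

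The promoters of the ETS factor genes fell into 3 kinds. Etv5, Elf1 and Gabpa had a promoter region in all 10 libraries, Spi1 in 9 and Etv6 in 8, and Erg, Fli1 and Ets1 in 0. The share of genes with a promoter in every library was 3 of 8 here, 5 of 18 among other ETS genes (Ets2, Etv3, Elk1, Elk4 and Elf2) and 26.6% of all genes. Promoters were unlisted in every library for 3 of 8, 9 of 18 and 55.4%.

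Etv5 (ENSMUSG00000013089.15, chr16:22381309-22439719, minus strand) had the highest ranked own promoter, and its promoter is among those that the study captured as GATA1-repressed. At Etv5 −0.1 kb (chr16:22439483-22440127) the percentiles from 0 to 24 h, in time order, were 99.4, 98.1, 96.5, 99.4 and 94.8 in replicate 1 and 84.2, 97.8, 96.1, 94.3 and 96.3 in replicate 2. The lowest value was that of 0 h replicate 2, and the time points overlapped. On normal scores of the percentile the difference between 24 h and 0 h was −0.06 (SE 0.53, limma adjusted p = 0.999). The study reported decreases in accessibility for its repressed promoters as a set, from read signal scaled to depth. A percentile within a list is a different measure, so these values do not bear on that result.

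The Elf1 promoter (ENSMUSG00000036461.16, chr14:79481194-79582494, plus strand) is shared with Wbp4, which is transcribed the other way. At Elf1 +0.2 kb (chr14:79480725-79482144) replicate 1 had percentiles of 82.8, 95.6, 92.9, 93.7 and 90.9 in time order, and replicate 2 had 73.0, 59.4, 88.9, 80.4 and 81.3. Replicate 1 ranked above replicate 2 at all 5 time points, and the 0 h values lay inside the range of the others. A second annotated Elf1 start was marked by Elf1 +34.4 kb (chr14:79515239-79516003), which was listed in 6 libraries at percentiles of 12.7 to 50.7. Both libraries listed it at 12 h alone, and since 1 of the 0 h libraries also listed it (24.3), it was called neither gained nor lost.

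The Gabpa promoter (ENSMUSG00000008976.16, chr16:84834925-84863779, plus strand) overlaps the start of Atp5j, a subunit gene of the mitochondrial ATP synthase that is transcribed the other way. At Gabpa +0.0 kb (chr16:84834590-84835270) the percentiles in time order were 61.2, 81.6, 73.8, 72.4 and 78.7 in replicate 1, and 72.9, 85.1, 78.2, 49.9 and 44.7 in replicate 2. Both 2 h values lay above both 0 h values, and the 24 h values lay on either side of them. The difference between 2 h and 0 h was 0.52 (SE 0.47, limma adjusted p = 1). The central 200 bases held 3 ETS matches, the most of any region in the windows along with Spi1 −25.6 kb, the promoter of Slc39a13. How many of all promoter regions hold 3 matches is not given here, so whether this is unusual cannot be said. The 3 matches of the Gabpa promoter are shown with 12 bases on each side, and capitals mark the match.
Gabpa promoter, 66 bases before the start (chr16:84834847-84834876, plus strand): gccaccgttctaCTTCCGgccctggctccg
Gabpa promoter, 22 bases after the start (chr16:84834935-84834964, plus strand): cgctcaccggacAGGAAGcgcctcgaaggg
Gabpa promoter, 87 bases after the start (chr16:84835000-84835029, plus strand): ccaaacaggaggAGGAAGtggagggtaagt

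Spi1 (ENSMUSG00000002111.8, chr2:91082390-91115756, plus strand) had a promoter region of lower rank. At Spi1 +0.7 kb (chr2:91096371-91097263) replicate 1 had percentiles of 48.7, 36.8, 66.6, 29.4 and 50.4 in time order. Replicate 2 had 19.0, 34.0, 37.0 and 9.2 up to 12 h and did not list the region at 24 h. Replicate 1 ranked above replicate 2 at every time point at which both listed it, and the time points overlapped. Of 9761 genes compared over 10 libraries, with an unlisted promoter at 0, the closest non-ETS promoter patterns were those of Slc25a13 (Pearson r = 0.951) and Cox7c (r = 0.908). Both share these lists, and the values describe likeness only.

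Etv6 (ENSMUSG00000030199.16, chr6:134035700-134270158, plus strand) had a promoter region that was missing in replicate 2 at 0 h and at 24 h. At Etv6 −0.1 kb (chr6:134034693-134036451) replicate 1 had percentiles of 25.4, 57.6, 42.8, 15.9 and 18.9 in time order, and replicate 2 had 37.8, 49.1 and 34.6 at 2, 6 and 12 h. The 2 h and 6 h values all lay above the 0 h and 24 h ones. Both libraries that lack the promoter have the shortest lists, of 11698 and 10698 summits, and the part of list length in this pattern was not tested. The closest non-ETS promoter patterns were those of Ndufaf1 (r = 0.965) and Tnfaip8l1 (r = 0.934).

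**Figure D2:**
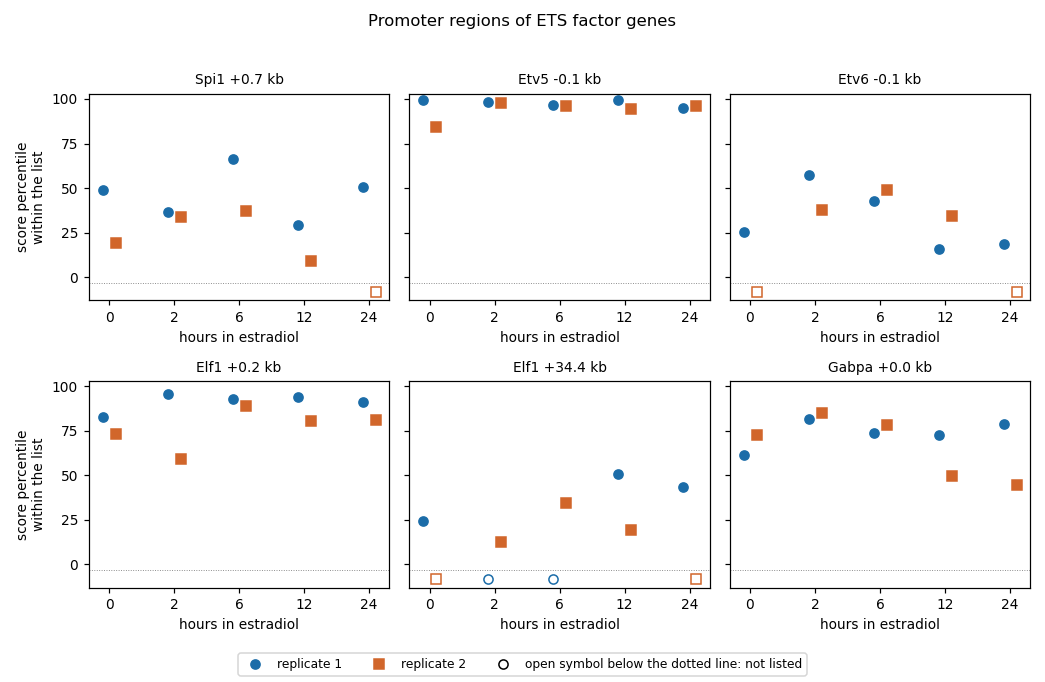
The 6 promoter regions of ETS factor genes are drawn with the score percentile within the list (y axis) against hours in β-estradiol (x axis), 1 point per library. Circles are replicate 1, squares replicate 2, and open symbols below the dotted line mark libraries that do not list the region. Etv5 −0.1 kb stays between 84.2 and 99.4, and the points of Spi1 and Etv6 spread lower.

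Whether regions appeared or vanished once GATA1 was active was examined by listing. A region was called lost at a time point when both 0 h libraries listed it and neither library of that time point did, and gained in the opposite case. All 4 comparisons share the 0 h libraries. Of the 21 regions in both 0 h libraries, 2 were lost at 2 h (3.42% of all such regions in the genome), 1 at 6 h (2.26%), 4 at 12 h (5.6%) and 4 at 24 h (10.4%). All of them were distal. Of the 9 distal regions in both 0 h libraries, the same counts stand beside 7.65%, 6.3%, 14% and 26.8% of all distal regions. Of the 19 regions in neither 0 h library, 0 were gained at 2 h (6.07% of all such regions), 2 at 6 h (9.28%), 0 at 12 h (5.62%) and 0 at 24 h (3.89%). The share lost among the 21 was above that of all regions at every time point, by counts of 1 to 4 regions. These counts overlap, since Elf1 +19.6 kb was lost at all 4 time points and was the only region lost at 6 h. Of the 21 regions 9 were distal, beside 3334 of all 9745 regions in both 0 h libraries. A pair of libraries against a pair allows no exact permutation p below 0.333, so the listing calls themselves were not tested, and ranks were tested in limma instead.

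**Figure D3:**
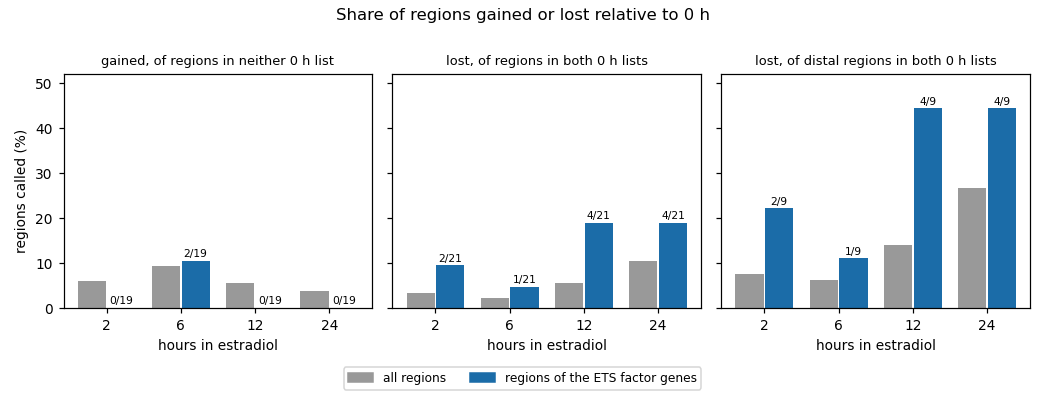
Bars give the percentage of regions called gained (left), lost (middle) and lost among distal regions (right) at 2, 6, 12 and 24 h, in grey for all regions and in blue for those of the ETS factor genes, whose counts stand above the bars. The tallest blue bars are 4 of 9 distal regions lost at 12 h and at 24 h, beside grey bars of 14% and 26.8%.

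Erg (ENSMUSG00000040732.20, chr16:95359169-95586593, minus strand) lost the highest ranked of these regions. Erg +98.5 kb (chr16:95487790-95488389), in an Erg intron and with 2 GATA matches, had percentiles of 67.0 and 81.9 at 0 h and 54.2 and 28.6 at 2 h. At 6 h replicate 2 listed it at 13.8, and no library did at 12 or 24 h. Each value after 0 h lay below both 0 h values. Of the 467 distal regions lost at 12 h, 7 had a mean 0 h percentile at least as high, and of the 893 lost at 24 h, 64 did. Erg +98.5 kb itself is included in both counts. The call held in lists trimmed to equal size.

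The other Erg regions were all distal too. Erg +146.9 kb (chr16:95439007-95440301), intronic, was the most often listed, with percentiles of 79.8, 49.5, 28.3 and 31.9 from 0 to 12 h in replicate 1, which did not list it at 24 h, and of 69.5, 75.6, 86.5, 67.5 and 40.8 in time order in replicate 2. The replicates lay far apart from 2 h on, and the single 24 h value was below both 0 h values. Erg +151.8 kb, intronic, was called gained at 6 h, at 11.1 and 32.3. It was also listed in replicate 2 at 2 h (36.0) and 12 h (35.4) and in neither 24 h library, and with lists of equal size it was no longer gained. The remaining 6 regions were in 1 or 2 libraries each. The number of Erg summits in time order was 4, 4, 4, 3 and 0 in replicate 1 and 3, 3, 6, 3 and 2 in replicate 2, so that both 24 h libraries lay below all others.

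Spi1 lost 1 region, in its own coding sequence. Spi1 +19.1 kb (chr2:91114894-91115552) had percentiles of 46.6, 3.4, 11.9 and 46.1 from 0 to 12 h in replicate 1 and of 24.8, 26.0, 29.3 and 21.9 in replicate 2, and no 24 h library listed it. It was present in 8 of 8 libraries up to 12 h, and the earlier time points overlapped. Its mean 0 h percentile was near the middle of the distal regions lost at 24 h. Of these 893, 469 ranked at least as high, itself included. The call held with lists of equal size. The promoter region of Spi1 was not lost at 24 h, since replicate 1 listed it at 50.4.

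In contrast to these, Spi1 −35.1 kb (chr2:91060576-91061320), with 2 GATA matches, was listed throughout. Its percentiles in time order were 74.1, 85.1, 92.7, 98.3 and 97.0 in replicate 1 and 60.8, 38.8, 84.4, 82.8 and 68.1 in replicate 2. Both values at 6 h and at 12 h lay above both 0 h values, and those at 2 h and 24 h did not. The difference between 12 h and 0 h was 1.07 on normal scores (SE 0.60) and did not pass (limma adjusted p = 0.999, and 0.903 with the replicate block). Within each replicate the values at 6, 12 and 24 h all lay above that of 0 h. Spi1 −13.1 kb (chr2:91082715-91083296) was chosen after its values were seen. It lies within 1 kb of the 5′ end of the annotated Spi1 span, where the basic set holds no start, and is classed as distal. Whether it acts as a promoter or as an enhancer was not tested. It was listed in replicate 1 alone, at 34.6 at 0 h, 57.3 at 6 h and 49.7 at 24 h, and held 2 ETS matches.

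Etv6 lost 1 region and gained 1, both intronic. Etv6 +82.1 kb (chr6:134117336-134118174), with 2 GATA matches, had percentiles of 1.5 and 25.2 at 0 h, 7.9 in replicate 2 at 2 h, and 10.5 and 20.2 at 6 h, and was absent from all 4 lists of 12 and 24 h. Its ranks were low throughout, and with lists of equal size it was listed in 1 library at 0 h and no longer counted as lost. Etv6 +47.0 kb (chr6:134082339-134082969), with 1 GATA and 1 ETS match, was in neither 0 h list and at 39.2 and 30.8 at 6 h. Replicate 1 also listed it at 2 h (26.6), 12 h (48.1) and 24 h (40.0), whereas replicate 2 listed it at 6 h alone. The gain at 6 h thus rests on 1 replicate 2 library, that with the longest list, and was not called with lists of equal size.

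Elf1 +19.6 kb (chr14:79500522-79501144), intronic, was listed at 9.5 and 32.7 at 0 h and in none of the 8 later libraries, so it was lost at all 4 time points. Its rank in replicate 1 was low, and with lists of equal size it was listed in 1 library at 0 h. The distal Elf1 region with the highest mean rank was Elf1 +49.1 kb (chr14:79529954-79530656), with 1 GATA match, at 38.7, 60.7, 33.4, 46.4 and 79.8 in time order in replicate 1 and at 62.9, 65.1, 63.3 and 53.3 up to 12 h in replicate 2, whose 24 h list lacked it. These values overlapped between time points.

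Etv5 −77.8 kb (chr16:22517077-22518015), in an intron of the neighbouring gene Dgkg and, in its central 200 bases, in an exon of the antisense RNA gene 9230117E06Rik, was listed at 56.3 and 20.0 at 0 h and in no library at 2 h or 12 h. It was listed again in replicate 2 at 6 h (14.3) and at 24 h (13.6), so its loss was not steady in time. It held neither motif in its central 200 bases. Gabpa had no distal region, and its second region was the promoter of Mrpl39, listed in every library.

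**Figure D4:**
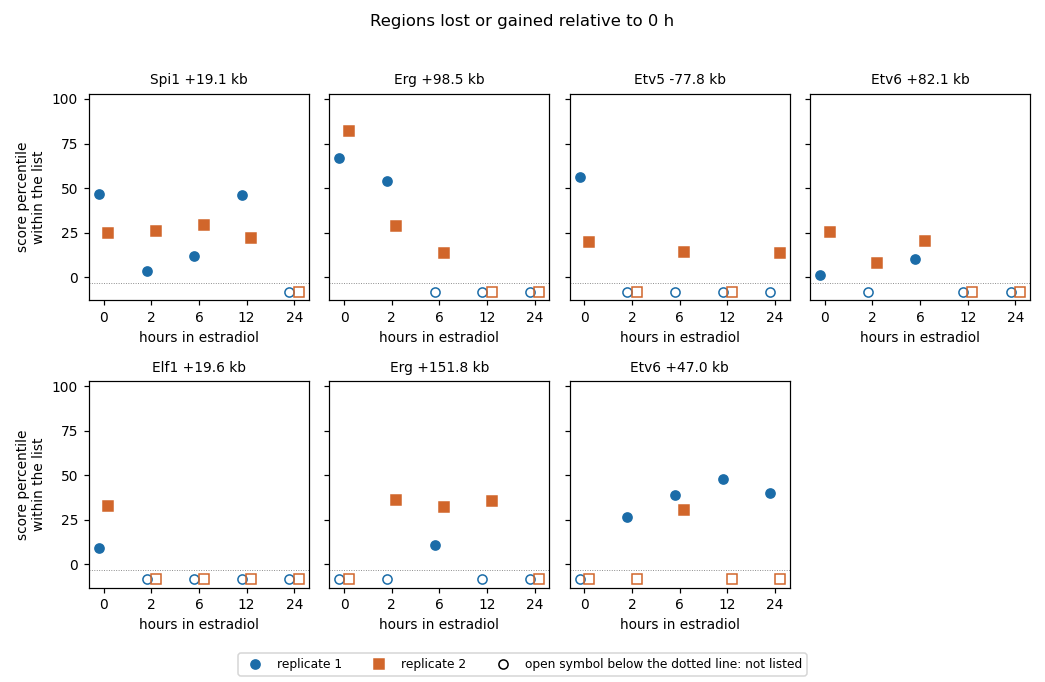
The 5 lost and 2 gained regions are drawn with the score percentile within the list (y axis) against hours in β-estradiol (x axis), circles for replicate 1 and squares for replicate 2. Open symbols below the dotted line mark libraries that do not list the region. Erg +98.5 kb descends from 67.0 and 81.9 at 0 h to unlisted at 12 h, and Spi1 +19.1 kb is unlisted at 24 h alone.

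The ranks of regions present throughout were tested across the genome. Of the 6234 regions in all 10 libraries, 11 lay in the windows of ETS factor genes, and 0 of these 11 differed from 0 h at 2, 6, 12 or 24 h in the limma test of normal scores (0% of the 6234 were called at each time). At an unadjusted p under 0.05 there were 0 of the 11 at each time point, and 211, 242, 195 and 259 of the 6234. With the replicate number as a block the counts among the 11 were 0, 1, 2 and 1. They were Spi1 +87.0 kb, the promoter of Madd, at 6, 12 and 24 h and Spi1 −35.1 kb at 12 h. Again 0 passed the adjusted threshold. The matching unadjusted counts among the 6234 are not given here, so whether those of the 11 exceed them cannot be said. The median difference of the 11 was 0.19, 0.26, 0.27 and −0.04, and that of all tested regions 0.11, 0.21, 0.09 and −0.01. Requiring all 10 libraries leaves out every lost or gained region by construction.

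A wider fit took regions in at least 5 libraries and placed each missing library below the lowest peak of its list, so part of its values are imputed. It tested 25 of the 50 regions and called 0 of them at 2 h (0.143% of all 13291 regions), 0 at 6 h (0.354%), 0 at 12 h (0.489%) and 1 at 24 h (1.23%). The region called was Spi1 +19.1 kb, which fell by 3.73 on normal scores (SE 0.60, limma adjusted p = 0.0399), with both 24 h values imputed. Where both libraries of a time point lack a region, their fill values are nearly alike. They set the size of such a fall and add almost no spread to its SE. With the replicate number as a block this call was lost (limma adjusted p = 0.0708), and 0 regions of the ETS factor genes passed at any time point, beside 0% of all regions at 2, 6 and 12 h and 0.956% at 24 h. Erg +98.5 kb did not pass, with a difference of −4.82 at 12 h (SE 0.94, limma adjusted p = 0.138) and of −4.79 at 24 h (SE 0.94, limma adjusted p = 0.0893). Etv6 +82.1 kb did not pass either, at −2.70 at 24 h (SE 0.94, limma adjusted p = 0.443). Etv5 −77.8 kb, Elf1 +19.6 kb and Erg +151.8 kb were in too few libraries for this fit.

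Counted together, distal summits in the windows had their lowest mean at 24 h, but how far it stood apart depended on the scaling. In time order there were 15, 13, 12, 14 and 6 in replicate 1 and 11, 7, 18, 6 and 6 in replicate 2. The mean was 13 ± 2.83 (SD, n = 2) before treatment and 6 ± 0 (SD, n = 2) after 24 h, and no exact test of this size can pass. Both 24 h values lay below both 0 h values, although 12 h replicate 2 also had 6. List length varied beside this, with 7026 and 4568 distal summits in all at 0 h and 7200 and 3526 at 24 h. Per 1000 distal summits the genes had 2.27 ± 0.193 at 0 h and 1.27 ± 0.614 at 24 h (SD, n = 2), with 2.13 and 2.41 against 0.833 and 1.70 in the single libraries. The means in between were 1.39 at 2 h, 1.80 at 6 h and 1.48 at 12 h. On this scale 24 h replicate 2 lay above replicate 2 of 2 h (1.09), 6 h (1.69) and 12 h (1.05). So 24 h did not separate from 2, 6 or 12 h. With lists of equal size the difference between 24 h and 0 h was −5 summits in place of −7.

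By gene, the mean number of distal summits was lower at 24 h than at 0 h for 5 genes and equal for 3, namely Fli1, Ets1 and Gabpa, which had none at any time. The differences were −2.5 for Erg, −2 for Elf1, −1.5 for Spi1 and −0.5 each for Etv5 and Etv6. Of the 18 other ETS genes, 6 were lower, 6 higher and 6 equal. Among all protein-coding genes 24% were lower and 28.3% higher. Between replicates of a time point the counts of a single gene differed by up to 5 (Etv6 at 12 h, 5 and 0, and Elf1 at 2 h, 6 and 1), which is larger than any of these differences.

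**Figure D5:**
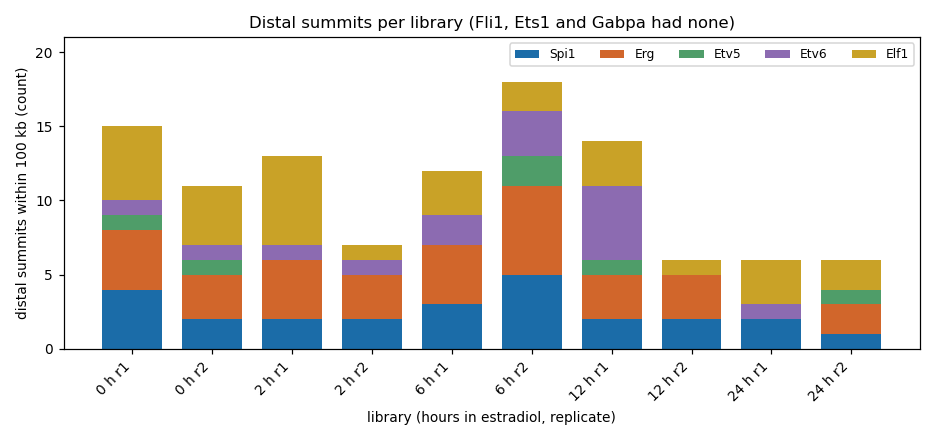
Stacked bars give the number of distal summits within 100 kb of each gene (y axis, count) in each of the 10 libraries (x axis). Both 24 h libraries hold 6, and the 0 h libraries 15 and 11, with Erg at 0 in 24 h replicate 1.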

How the data were processed

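ATAC-seq was done on about 50000 G1E-ER4 cells per library. The submitters' processing notes name Bowtie 1.0.0, Picard, MACS2 and the build mm10, whereas the study's methods name Bowtie2, so the aligner is not settled. Each deposited list was called in 1 library and gives 1 bp summits with a score, which is −log10 of the q-value from the authors' MACS run and is not scaled between libraries. Read totals, peak widths and counts were not used here, so precision could not be given from depth. No shift for the Tn5 cut is stated, and summit positions may be off by some bases.

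The 4 or 5 mitochondrial peaks of each list were left out. Summits were extended by 250 bp on each side and merged. Genes and 41525 starts of 21938 protein-coding genes came from the GENCODE M21 basic set. Percentiles were computed within each list, converted to normal scores and compared with 0 h in limma 3.58.1 (R 4.3.3). Benjamini-Hochberg adjustment ran over all regions tested, at a threshold of 0.05. The fit was first checked on simulated data with noise independent between libraries, so the check does not cover a replicate effect. The labels do not say whether libraries came from separate cultures, so p-values measure only the spread between libraries. Deviations of same-numbered libraries correlated at 0.182 to 0.347 in 10 of 10 pairs of time points. The replicate numbers were therefore taken to pair the samples, from the data and not from a stated design. This pairing entered only the fits with the replicate block. The main fit was unpaired, and the SEs and p-values above are from unpaired fits unless the block is named. Motifs were read in the central 200 bp. Named were all 8 genes, their promoter regions, every lost, gained or called region, the distal region of highest mean rank per gene, and the 2 closest non-ETS promoter patterns of genes whose promoter was in 2 to 9 libraries. The genes, lists and tests were chosen with earlier results of these data known. Values of 2 marker genes and 1 region sequence are not reported here.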

Additional observations from a re-analysis of the deposited data

How the results depend on the processing

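Calls of listing are limited by 2 libraries per group, unknown depth and list lengths of 10698 to 19859 summits. A score of at least 2 and windows of 100 or 500 bp on each side left the 8 counts of gained or lost regions within 1.5 times. Lists of equal size gave 1 region gained at 2 h in place of 0 and 1 gained at 6 h in place of 2. Each was 1 of 10 regions in neither 0 h list, beside 6.1% and 6.14% of all such regions. They also gave 4 lost at 6 h in place of 1 and 2 lost at 24 h in place of 4. These were of 18 regions in both 0 h lists, beside 5.53% and 9.66% of all such regions. For single lost or gained regions, 44 of 52 values were the same under these alternatives, and the 8 that moved were all under equal size. Leaving out a library relaxes the criterion by construction, and gave 0 to 5, 2 to 9, 0 to 7 and 0 to 1 regions gained at 2, 6, 12 and 24 h, and 2 to 5, 1 to 4, 4 to 9 and 4 to 8 lost. The highest gained count at 2 h was 5 of 19 without 2 h replicate 2, beside 25.5% of all such regions. At 6 h it was 9 of 19 without 6 h replicate 1 (44.4%), and at 12 h 7 of 19 without 12 h replicate 2 (26.2%). At 24 h it was 1 of 20 without 0 h replicate 2 (5.2%) and 1 of 19 without 24 h replicate 2 (28.6%). The highest lost counts came without 0 h replicate 2, with 5, 4, 9 and 8 of 30, beside 14.6%, 11.6%, 17.2% and 22.6%. At 6 h 4 were also lost without 6 h replicate 2 (of 21, beside 13.8%). Counts also moved by over 1.5 times without 0 h replicate 1 (gained at 2, 6 and 12 h, lost at 6 h) and 2 h replicate 1 (gained and lost). The same held without 6 h replicate 2 (gained), 12 h replicate 1 (gained) and 24 h replicate 1 (lost, 7 of 21, beside 21.8%). Among regions in all 10 libraries 0 passed with the replicate block at any time point, without any 1 library and under the other alternatives. Regions in at least 5 libraries gave 1 at 24 h without the block and 0 with it, a setting chosen after seeing the data, so that the pairing ended this 1 call. Over all regions this fit then called 0, 0, 0 and 127 in place of 19, 47, 65 and 164. The number of genes with a promoter in every library was 3 under every alternative, including all annotated starts (also chosen after seeing the data), except that without 24 h replicate 2 it was 4, with Spi1 added. The difference in distal summits, −7, ran from −9 to −5.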
